A study of Homo sapiens with 3 samples.

Results

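The genes of cholesterol synthesis and sterol regulation were followed in C4-2B cells made resistant to either of a pair of drugs that act on androgen signalling. The set held 28 genes, chosen by name from the route that makes cholesterol, the proteins that sense it and those that store or move it. They were chosen with earlier results of these data known. All probe sets that the platform annotation assigns to 1 of these genes were used. They numbered 55 and read 26 of the 28 genes, among 19775 genes read by 41097 probe sets on the whole array. FDFT1, which makes squalene, was not analysed here, and CYP51A1 was covered by 2 probe sets shared with LRRD1, which are described apart. C4-2B, an LNCaP derivative, is a long-used cell line of prostate cancer that grows despite castration. C4-2B MDVR cells were kept in 20 µM enzalutamide, which blocks the androgen receptor, C4-2B AbiR cells in 10 µM abiraterone acetate, which inhibits androgen synthesis, and C4-2B parental cells in medium without either drug, passaged alongside the resistant lines. Each resistant line is a single derived subline, measured on 1 Affymetrix HG-U133 Plus 2.0 array, as was the parental line. There were therefore no replicates, no test and no p-value. Every difference below is between 2 arrays, and drug exposure, subline and array cannot be told apart. Both resistant lines were set against the same parental array, so that an odd value there would enter both comparisons.

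Cells build cholesterol from acetyl-CoA through mevalonate, prenyl diphosphates, squalene and lanosterol. Transcription of most of these enzymes is driven by the SREBP factors, which are held in the endoplasmic reticulum with SCAP and the INSIG proteins while sterol is plentiful. When sterol runs low, the SREBP proteins are released and cut, and enter the nucleus. Cholesterol taken up by endocytosis leaves the lysosome through NPC2 and NPC1, and excess is stored as ester by SOAT1. In prostate cells cholesterol is also the starting material of androgens.

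Values are log2 values that the authors had centred for each probe set, so that a value above 0 says only that an array lies above the middle of the arrays used for centring. A level of expression could not be recovered from them. For the same reason the presence of prostate markers could not be checked. Of 5 luminal prostate markers measured, 2 fell short of parental by 2-fold or more in C4-2B MDVR, and 2 did in C4-2B AbiR, where 1.67% of all genes did in MDVR and 0.804% in AbiR. The marker median was −0.18 in MDVR cells, and in AbiR cells it was −0.45. Their part in the results below was not tested. A lower value may come from fewer cells that express a gene or from less RNA in each cell, and these cannot be told apart. Values after ± are SDs over a gene's own probe sets, which is a technical spread. Over 45 spiked bacterial control probe sets, the log2 difference from parental had an SD of 0.13 on the MDVR array and of 0.10 on the AbiR array, and the SD between the resistant arrays was 0.12. Probe sets of the same gene differed more. Over 10523 genes with several, their SD had a root mean square of 0.34 in MDVR and 0.27 in AbiR. Between the resistant arrays it was 0.32. For a gene read by 1 probe set this spread cannot be seen.

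The sterol genes did not move as a block. TM7SF2, INSIG2 and NPC2, each read by 1 probe set, were higher on both resistant arrays than on the parental array, by 1.57-fold to 2.68-fold. Of all genes, 1.71% were at least 1.5-fold higher on both. INSIG1, MSMO1, STARD4, FDPS, ACAT2 and HMGCS1 were lower on both, by 1.19-fold to 1.90-fold. Of these, INSIG1 was read by 3 probe sets, HMGCS1 by 2 and the others by 1 each. All but HMGCS1 were at least 1.2-fold lower on both, 5 sterol genes, where 6.40% of all genes were. The means of EBP, DHCR7, SCAP, GGPS1 and SOAT1 were also below parental on both arrays, but by less than 1.2-fold on at least 1 of them. SREBF1 and GGPS1 were lower on the MDVR array, SOAT1 was lower mainly on the AbiR array, and NPC1 lay on opposite sides of parental in the resistant lines.

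In C4-2B MDVR, TM7SF2 and NPC2 were at least 2-fold higher, 2 of the 26 genes, where 1.65% of all genes were. None of the 26 was at least 2-fold lower, where 1.67% of all genes were, and in either direction the share of all genes was 3.33%. At 1.5-fold, 3 sterol genes were higher (4.81% of all genes) and 4 were lower (5.15% of all genes). The lower ones were INSIG1, MSMO1, SREBF1 and GGPS1. For SREBF1 and GGPS1 only 1 of 2 probe sets was past this limit, and MSMO1 and the 3 higher genes were read by 1 probe set each. These 7 made up 26.9% of the set, against 9.97% of all genes in either direction. Since the genes were chosen with earlier results of these data known, neither this share nor that for AbiR below tests for an excess. The median difference of the 26 genes was −0.14, and that of all genes was 0.044. Of the 26, 16 were below 0 (61.5%), as were 42.4% of all genes, a difference that was not tested.

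In C4-2B AbiR, TM7SF2 and INSIG2 were at least 2-fold higher, again 2 of 26, where 1.07% of all genes were. By the gene means none was at least 2-fold lower (0.804% of all genes, and 1.88% in either direction). At 1.5-fold, 3 sterol genes were higher (3.32% of all genes) and 1 was lower (2.52% of all genes). These 4 were 15.4% of the set, where the share of all genes in either direction was 5.84%. The median was −0.013, close to the −0.011 of all genes, and 13 of the 26 were below 0, as were 52.4% of all genes.

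**Figure D1:**
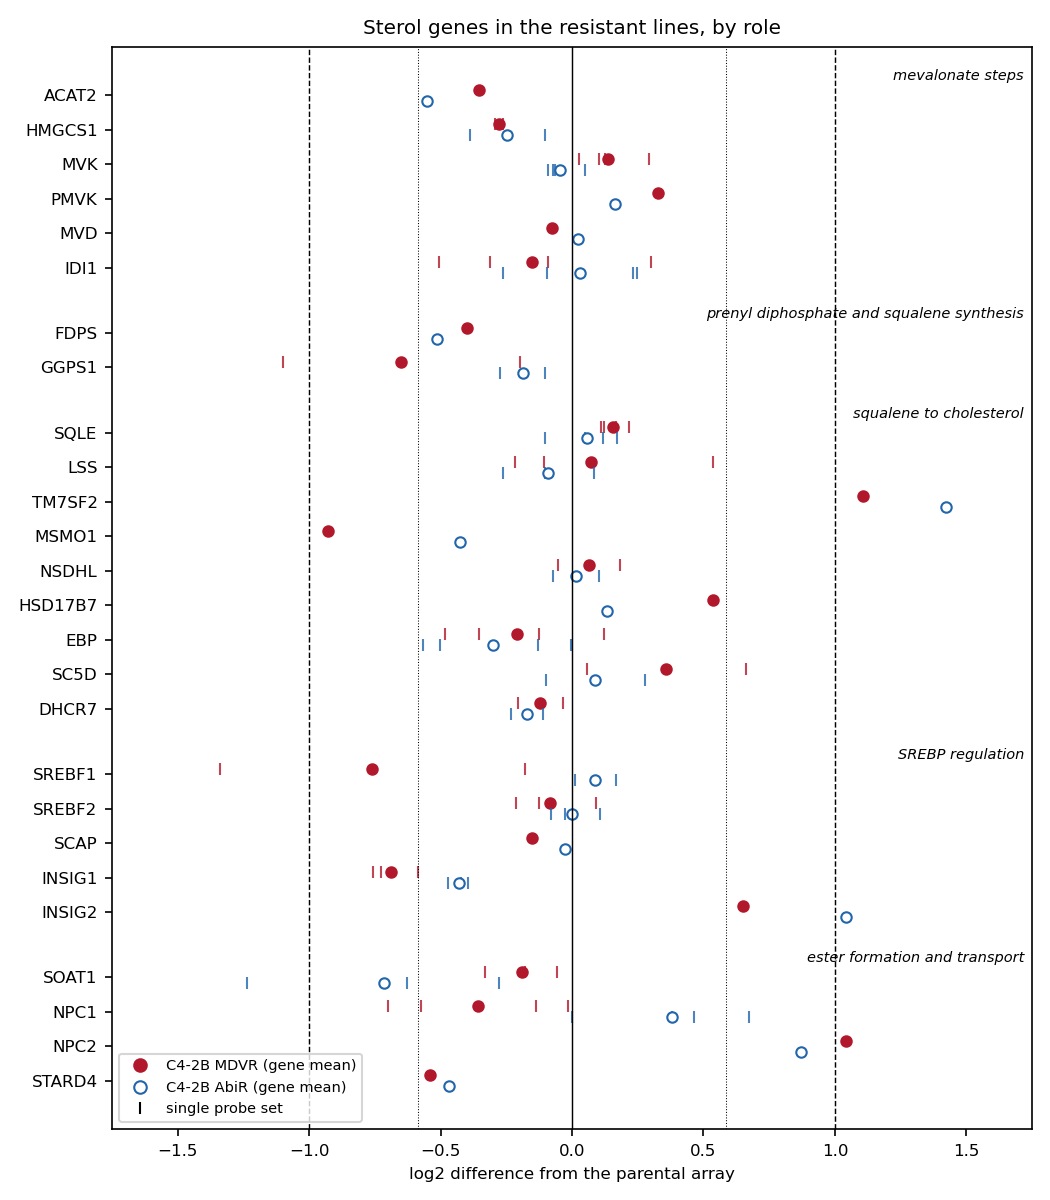
The 26 sterol genes (y axis, grouped by role) by their log2 difference from parental (x axis), with gene means for C4-2B MDVR (filled circles) and C4-2B AbiR (open circles), single probe sets as ticks, and lines at 1.5-fold (dotted) and 2-fold (dashed). TM7SF2 lies at 1.11 and 1.42, MSMO1 at −0.93 and −0.43, and the probe sets of SREBF1, GGPS1 and SOAT1 are spread widely.

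**Figure D2:**
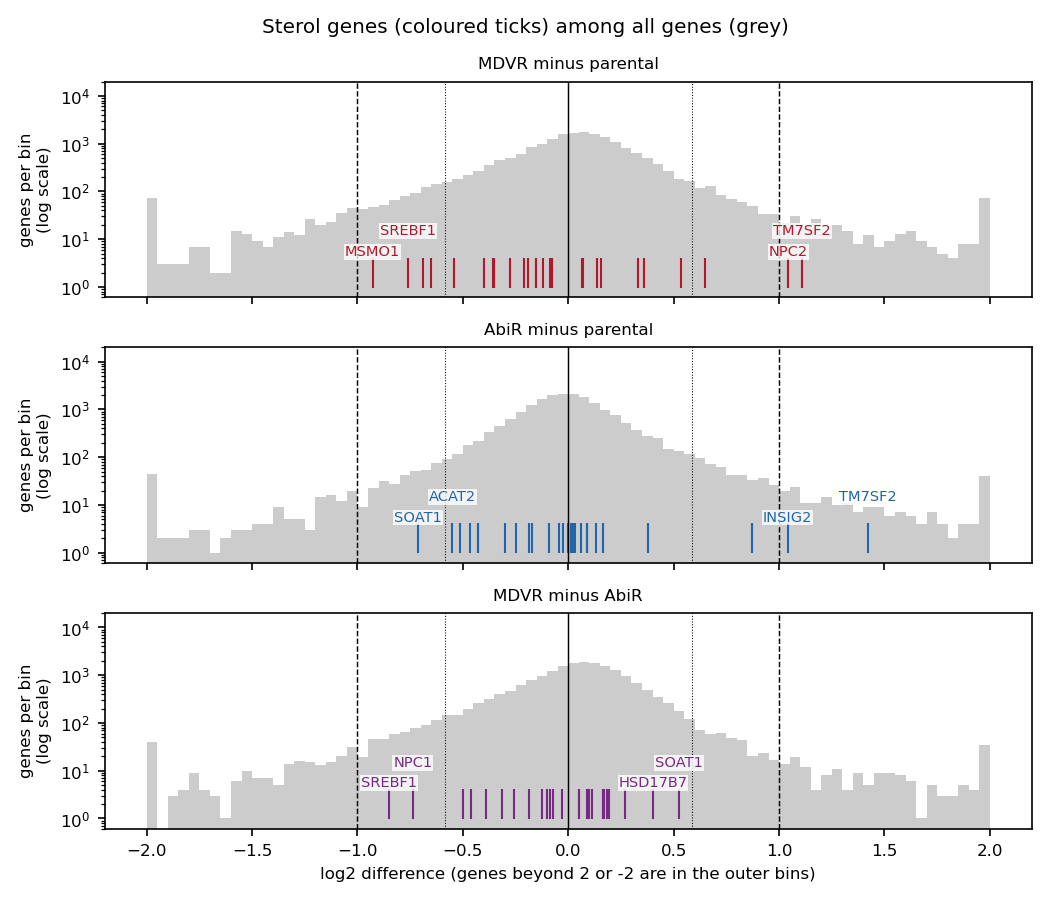
Histograms of the log2 differences (x axis) of 19775 genes (y axis, genes per bin on a log scale) in MDVR against parental, AbiR against parental and MDVR against AbiR, with the 26 sterol genes as coloured ticks and the outermost named. In each panel most sterol genes lie inside the dotted 1.5-fold lines, and in MDVR 7 of 26 lie beyond them.

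The first steps lead from acetyl-CoA to mevalonate and on to the activated isoprene unit. ACAT2, the cytosolic thiolase that starts the route, had a centred log2 value of −0.13 in MDVR, −0.33 in AbiR and 0.22 in parental cells, so that it was lower in both resistant lines, by 1.28-fold and 1.46-fold. HMGCS1, which makes HMG-CoA, was read by 2 probe sets. MDVR cells had −0.13 and −0.24 and AbiR cells −0.26 and −0.052, against 0.13 and 0.052 in parental cells. Both probe sets were lower in both resistant lines, with mean differences of −0.28 ± 0.022 in MDVR and −0.25 ± 0.20 in AbiR. The kinases that phosphorylate mevalonate did not follow. MVK had differences of 0.14 ± 0.11 in MDVR and −0.045 ± 0.065 in AbiR over 4 probe sets, all of them above parental in MDVR. PMVK, with 1 probe set, had values of 0.24 in MDVR, 0.074 in AbiR and −0.090 in parental cells, a difference of 0.33 and of 0.16. MVD, the decarboxylase that forms isopentenyl diphosphate, differed by −0.077 and 0.023, within the spread of the spiked controls. The isomerase IDI1 had means of −0.15 ± 0.35 and 0.032 ± 0.25, and its 4 probe sets went both ways in both lines, from −0.51 to 0.30 in MDVR and from −0.26 to 0.25 in AbiR. No direction can be given for IDI1. Over these 6 genes the median was −0.11 for MDVR cells (all genes 0.044), and for AbiR cells it was −0.011 (all genes −0.011). None of them reached 1.5-fold in either line. With 9.97% of all genes past this limit in MDVR and 5.84% in AbiR, a count of 0 among 6 genes says little about them.

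FDPS and GGPS1 make the longer prenyl diphosphates, of which farnesyl diphosphate goes on to squalene and both serve to anchor proteins in membranes. The probe set of FDPS had values of −0.13 in MDVR and −0.24 in AbiR, against 0.27 in parental cells. FDPS was thus lower by 1.32-fold in MDVR, where 9.16% of all genes had a lower difference, and by 1.43-fold in AbiR, where 3.27% had. The probe sets of GGPS1 disagreed in size. One had −1.05 in MDVR and −0.052 in AbiR, against 0.052 in parental cells. The other had −0.10 and −0.17, against 0.10. The mean for MDVR, −0.65 ± 0.64, therefore rested on 1 probe set with a difference of −1.10, beside one of −0.20. In AbiR the mean was −0.19 ± 0.12.

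The steps from squalene to cholesterol held the highest gene of the set in both lines, TM7SF2, and the lowest in MDVR, MSMO1. TM7SF2 (gene ID 7108), a sterol reductase that removes the double bond left after lanosterol demethylation, had a value of −0.098 in MDVR and 0.22 in AbiR, against −1.21 in parental cells. It was 2.16-fold higher in MDVR and 2.68-fold higher in AbiR, and 1.36% and 0.501% of all genes had a higher difference in these lines. It was read by a single probe set, of a kind whose probes can match more than 1 transcript. MSMO1 (gene ID 6307), the methyl sterol oxidase of the next step, went the other way, with −0.71 in MDVR and −0.21 in AbiR, against 0.21 in parental cells. It was 1.90-fold lower in MDVR, the lowest of the 26 genes there, and 1.34-fold lower in AbiR. HSD17B7, which reduces the ketone left by demethylation, had values of 0.33, −0.071 and −0.20 in MDVR, AbiR and parental cells, and was higher by 0.54 in MDVR and 0.13 in AbiR. Its only probe set is of a kind that may cross-hybridize with similar sequences.

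The other enzymes of this stretch differed less. EBP, the isomerase that shifts a double bond in the sterol ring, averaged −0.21 ± 0.27 over 4 probe sets in MDVR cells, and −0.30 ± 0.28 in AbiR cells. A pair of its probe sets lay at −0.35 and −0.48 for MDVR, at −0.57 and −0.50 for AbiR, while the remaining pair lay between −0.13 and 0.12 in both. The desaturase SC5D was at 0.36 ± 0.43 in MDVR, from probe sets at 0.66 and 0.057, and at 0.089 ± 0.26 in AbiR. DHCR7, the last reductase of 1 branch, was at −0.12 ± 0.12 and −0.17 ± 0.087, with both probe sets below 0 in both lines. SQLE, the oxidase that commits squalene to sterols, was at 0.15 ± 0.050 and 0.058 ± 0.12 over 4 probe sets, LSS, which closes the ring, at 0.072 ± 0.41 and −0.093 ± 0.17, and NSDHL, a dehydrogenase of the demethylation steps, at 0.064 ± 0.17 and 0.015 ± 0.12. The means of LSS and NSDHL were smaller than the spread between their probe sets in both lines. The 9 genes had medians of 0.072 in MDVR and 0.015 in AbiR.

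The 5 regulators of SREBP spanned both directions, from −0.76 to 0.65 in MDVR and from −0.43 to 1.04 in AbiR. INSIG1 (gene ID 3638) and INSIG2 (gene ID 51141) encode related membrane proteins that hold the SREBP and SCAP complex in the endoplasmic reticulum, and INSIG1 is itself a classical SREBP target. The 3 probe sets of INSIG1 stood at −0.35, −0.53 and −0.54 in MDVR cells, at −0.24, −0.20 and −0.21 in AbiR cells, against 0.24, 0.20 and 0.21 in parental cells. All 3 were lower in both lines and hardly differed, with means of −0.69 ± 0.091 (1.61-fold lower) in MDVR and −0.43 ± 0.040 (1.35-fold lower) in AbiR. INSIG2, read by 1 probe set, had −0.20 in MDVR and 0.20 in AbiR, against −0.85 in parental cells. It was higher by 0.65 (1.57-fold) in MDVR and by 1.04 (2.06-fold) in AbiR. The paralogs thus lay on opposite sides of parental in both resistant lines. SREBF1, the gene of the SREBP factor that mainly serves fatty acid synthesis, was read by 2 probe sets, which stood at −1.31 and −0.16 in MDVR cells and at 0.038 and 0.19 in AbiR cells, against 0.026 and 0.022 in parental cells. Both lay below parental in MDVR, but by −1.34 and −0.18, so that the mean of −0.76 ± 0.82 had a spread of its own size. In AbiR these probe sets were at 0.012 and 0.17 above parental, a mean of 0.089 ± 0.11. SREBF2, the gene of the factor that mainly serves cholesterol synthesis, was at −0.084 ± 0.16 in MDVR and 0.00047 ± 0.096 in AbiR over 3 probe sets that went both ways. SCAP, the escort protein, was at −0.15 and −0.027.

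**Figure D3:**
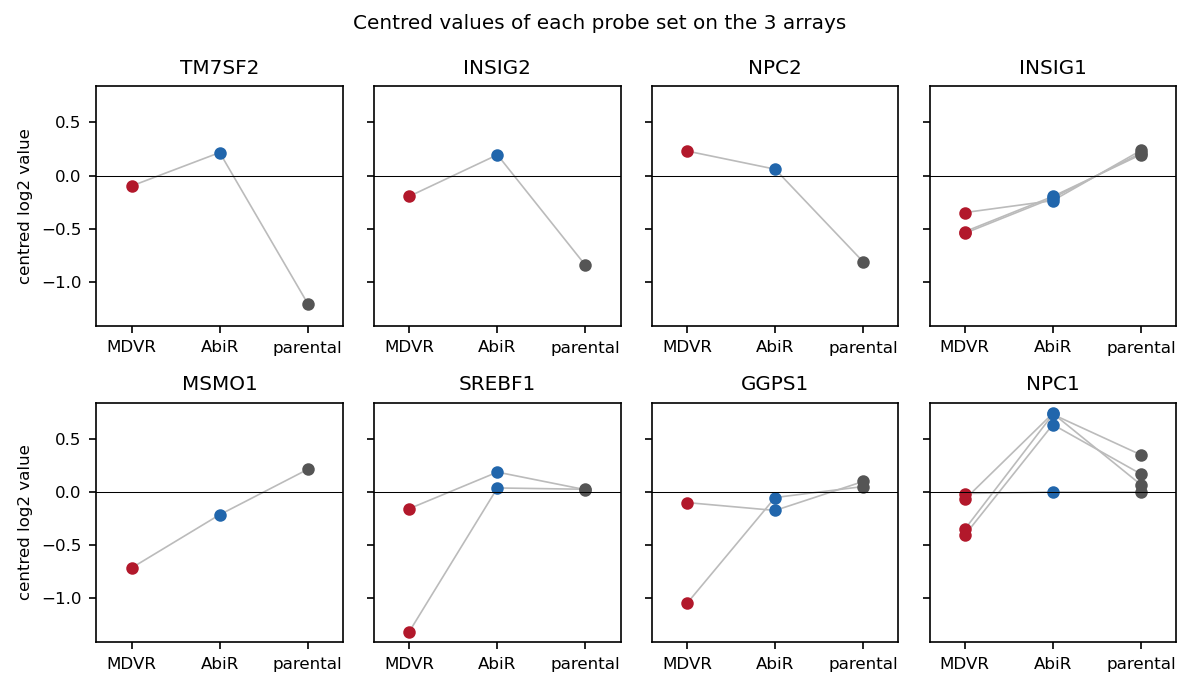
Centred log2 values (y axis) of every probe set of 8 sterol genes on the MDVR, AbiR and parental arrays (x axis), with a grey line joining the values of 1 probe set. The parental array is lowest for TM7SF2, INSIG2 and NPC2, the 3 probe sets of INSIG1 run together, and those of SREBF1 and GGPS1 part on the MDVR array.

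Promoter sequences are shown for TM7SF2 and MSMO1, the highest and lowest genes in MDVR, for the INSIG paralogs, and for SREBF2. Of the sterol genes searched, SREBF2 alone held an exact match to TCACNCCAC, a form of the sterol regulatory element, the site bound by SREBP. The windows are the 250 bases before the annotated start, 5′ to 3′ on the gene's strand, taken from RefSeq on GRCh38.p14. Matches on either strand are in capitals for TCACNCCAC (the element), its shorter form TCACNCCA, CCAAT (the NF-Y box) and GGGCGG (the Sp1 box). The shorter form lies inside the longer one. INSIG2 has a pair of annotated starts, 1 of which is shown.
MSMO1, chr4:165327419-165327668, + strand: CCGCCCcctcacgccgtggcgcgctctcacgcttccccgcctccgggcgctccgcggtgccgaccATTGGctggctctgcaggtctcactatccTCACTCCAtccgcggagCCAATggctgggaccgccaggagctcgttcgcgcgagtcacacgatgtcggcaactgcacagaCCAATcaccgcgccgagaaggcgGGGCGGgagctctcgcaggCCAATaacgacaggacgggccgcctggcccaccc
INSIG1, chr7:155297628-155297877, + strand: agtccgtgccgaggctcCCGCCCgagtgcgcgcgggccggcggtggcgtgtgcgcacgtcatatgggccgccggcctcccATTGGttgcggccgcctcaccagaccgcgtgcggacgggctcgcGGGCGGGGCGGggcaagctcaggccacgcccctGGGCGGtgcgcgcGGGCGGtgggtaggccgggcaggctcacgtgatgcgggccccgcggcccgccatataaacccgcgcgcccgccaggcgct
INSIG2, chr2:118088221-118088470, + strand: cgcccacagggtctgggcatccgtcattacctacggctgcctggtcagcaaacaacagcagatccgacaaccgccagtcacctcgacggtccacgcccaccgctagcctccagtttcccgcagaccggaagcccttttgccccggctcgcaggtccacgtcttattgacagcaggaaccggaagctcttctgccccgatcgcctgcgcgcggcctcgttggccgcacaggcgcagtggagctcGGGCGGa
TM7SF2, chr11:65111622-65111871, + strand: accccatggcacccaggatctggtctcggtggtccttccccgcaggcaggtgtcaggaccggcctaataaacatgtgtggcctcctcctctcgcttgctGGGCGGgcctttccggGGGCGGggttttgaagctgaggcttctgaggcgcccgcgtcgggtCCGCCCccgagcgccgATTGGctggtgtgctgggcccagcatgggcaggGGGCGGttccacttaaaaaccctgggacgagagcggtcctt
SREBF2, chr22:41832855-41833104, + strand: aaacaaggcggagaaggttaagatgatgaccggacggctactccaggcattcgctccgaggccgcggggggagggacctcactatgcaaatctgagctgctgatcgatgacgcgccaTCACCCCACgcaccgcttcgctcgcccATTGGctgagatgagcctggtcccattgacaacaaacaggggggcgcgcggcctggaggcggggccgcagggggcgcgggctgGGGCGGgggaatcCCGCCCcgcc

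The full element occurred in 1 of 34 windows of 25 sterol genes, and in 0.883% of the 35116 windows of all genes. The shorter form was found for MSMO1, MVK and SREBF2, or in 8.82% of the member windows against 3.20% of all windows. CCAAT was found in 61.8% of the member windows and in 32.0% of all, and GGGCGG in 91.2% and 42.6%. Over windows of protein-coding genes alone the shares were 32.7% for CCAAT and 53.7% for GGGCGG. MSMO1 held 4 CCAAT matches and INSIG2 none in either window, while TM7SF2 and INSIG1 held 1 each. A match is a run of letters, and binding was not measured.

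The 4 storage and transport genes had medians of −0.27 for MDVR cells and −0.044 for AbiR cells. NPC2 (gene ID 10577), the soluble lysosomal protein that picks up cholesterol, had values of 0.23 in MDVR and 0.060 in AbiR, against −0.81 in parental cells. It was 2.06-fold higher in MDVR and 1.83-fold higher in AbiR. NPC1 (gene ID 4864), the membrane protein that receives cholesterol from NPC2, was read by 4 probe sets. On the MDVR array they stood at −0.35, −0.41, −0.069 and −0.014 and on the AbiR array at 0.73, 0.64, 0.74 and 0, against 0.35, 0.17, 0.069 and 0 in parental cells. The last was flat over the arrays. The other 3 lay below parental in MDVR, by −0.70, −0.58 and −0.14, and above it in AbiR. Of these the −0.14 was about as large in size as the SD of the spiked controls in MDVR (0.13). Over all 4 probe sets the mean was −0.36 ± 0.33 in MDVR and 0.38 ± 0.28 in AbiR. STARD4, a small carrier of cholesterol between membranes, had −0.31 in MDVR and −0.23 in AbiR, against 0.23 in parental cells, and was lower by 1.46-fold and 1.38-fold. SOAT1, which esterifies cholesterol for storage, had mean differences of −0.19 ± 0.14 in MDVR and −0.71 ± 0.49 in AbiR over 3 probe sets, all of them below parental in both lines. In AbiR these were at −1.24, −0.63 and −0.28, so that the size of the difference depended on the probe set.

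The probe sets shared by CYP51A1, the lanosterol demethylase, and LRRD1 cannot be assigned to either gene. On the MDVR array they stood at −0.47 and −0.14 and on the AbiR array at −0.28 and −0.36, against 0.28 and 0.14 in parental cells. Both were lower in both lines, by −0.75 and −0.27 in MDVR and by −0.55 and −0.50 in AbiR.

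The resistant lines were also set against each other. None of the 26 genes differed by 2-fold or more between MDVR and AbiR. Among all genes 0.875% were that much higher in MDVR, 1.13% that much lower and 2.01% either. At 1.5-fold, 0 sterol genes were higher (2.77% of all genes) and 2 were lower (3.96% of all genes, and 6.74% in either direction). These 2 genes, 7.69% of the set, were SREBF1, at −0.85 ± 0.71 for MDVR minus AbiR, and NPC1, at −0.74 ± 0.50. The 2 probe sets of SREBF1 were lower in MDVR by −1.35 and −0.34, and 3 of the 4 probe sets of NPC1 by −1.08, −1.04 and −0.81. SOAT1 had the highest difference of the set, 0.52 ± 0.58, carried by 1 probe set at 1.18 beside others at 0.30 and 0.097. MSMO1 was at −0.50, GGPS1 at −0.46 ± 0.76, HSD17B7 at 0.40 and INSIG2 at −0.39. The 5 regulators were all below 0, as were 39.9% of all genes. Their median was −0.26, but SREBF2 (−0.085 ± 0.22) lay within the spread of its probe sets. SCAP (−0.124), with 1 probe set, was about as large in size as the SD of the spiked controls (0.122). The median over the 26 genes was 0.0089 where that over all genes was 0.054.

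Genes of the same pathways outside the set were read as 4 lists. Among other sterol enzymes and SREBP processing genes, 6 were measured. LBR, a nuclear membrane protein that carries out the same reduction as TM7SF2, had a value of −0.84 in MDVR and −0.050 in AbiR, against 0.64 in parental cells. It was 2.79-fold lower in MDVR and 1.61-fold lower in AbiR, opposite to TM7SF2 in both lines. LBR, like TM7SF2, was read by 1 probe set, so that the contrast rests on a single probe set for each gene and on the same parental array. The other 5 lay below 1.5-fold in both lines. Only 9.97% of all genes were past 1.5-fold in MDVR and 5.84% in AbiR, so that this count says little about so short a list. Among the 5 were the proteases that cut the SREBP proteins, which are named after their values were seen. MBTPS1 was at 0.025 ± 0.25 in MDVR and −0.014 ± 0.061 in AbiR, and MBTPS2 at −0.018 ± 0.14 and −0.080 ± 0.26.

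**Figure D4:**
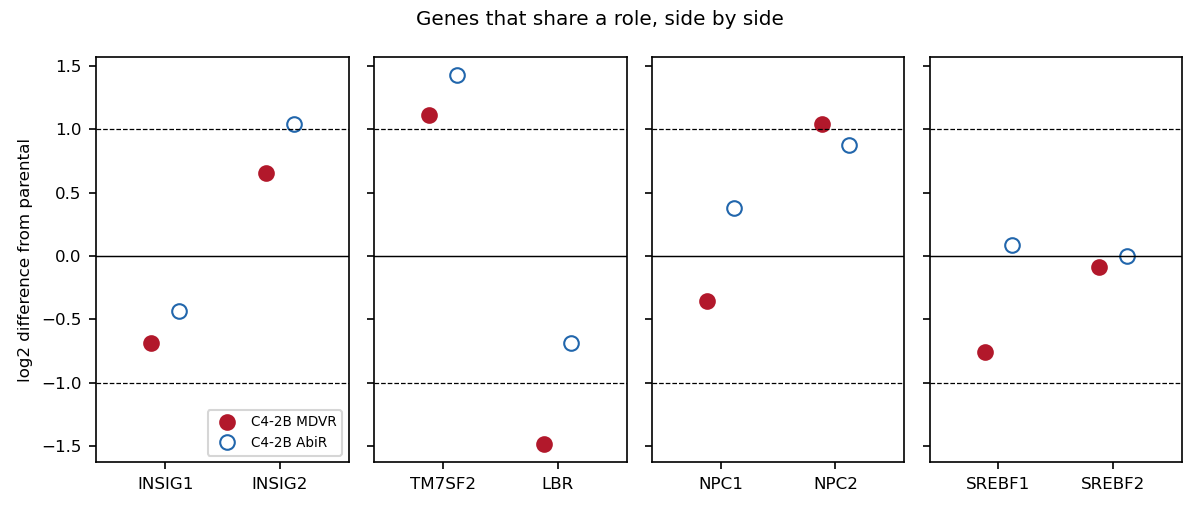
Log2 differences from parental (y axis) for pairs of genes that share a role (x axis), with filled circles for C4-2B MDVR, open ones for C4-2B AbiR and dashed lines at 2-fold. INSIG1 and INSIG2 lie on opposite sides of 0 in both lines, as do LBR and TM7SF2, while NPC1 lies below 0 in MDVR and above it in AbiR. INSIG2, TM7SF2, LBR and NPC2 were read by 1 probe set each.

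Of 15 genes of sterol transport, ester turnover and oxysterol sensing, 3 were at least 2-fold higher in AbiR cells, 0 were in MDVR cells, and in neither line was any of them 2-fold lower. Of all genes, 1.07% were that much higher in AbiR and 1.65% in MDVR, and 0.804% and 1.67% were that much lower. ABCG1, a sterol exporter and target of the oxysterol receptors, had 4 probe sets, with values from −0.21 to −0.0083 in MDVR and from 0.26 to 1.26 in AbiR, against −1.82 to −0.39 in parental cells. It was higher by 0.82 ± 0.61 in MDVR and by 1.66 ± 0.65 (3.16-fold) in AbiR, and each of the 4 probe sets was higher on both resistant arrays than on the parental array. GRAMD1C, of a family that carries cholesterol from the plasma membrane, had a value of −0.72 in MDVR and 0.68 in AbiR, against −0.68 in parental cells, differences of −0.039 and 1.35. NCEH1, a cholesteryl ester hydrolase, had −0.71 in MDVR and 0.56 in AbiR, against −0.56 in parental cells, differences of −0.15 and 1.12. For both genes, each read by 1 probe set, the MDVR array was close to parental and the AbiR array stood alone. The list had a median of −0.039 for MDVR (all genes 0.044) and of 0.15 for AbiR (all genes −0.011).

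Of 12 users of isoprenoids, none reached 2-fold in either line. With 3.33% of all genes past this limit in MDVR and 1.88% in AbiR, a count of 0 in a list this short says little about it. PGGT1B, a subunit of the enzyme that attaches geranylgeranyl groups, was lowest in MDVR at −0.78 ± 0.36, and DHDDS, of dolichol synthesis, was highest at 0.27 ± 0.083. In AbiR, FNTB, a farnesyltransferase subunit read by 1 probe set, was highest at 0.88 and NUS1, the partner of DHDDS, lowest at −0.49 ± 0.13. Over the list the median was −0.024 for MDVR cells (all genes 0.044), and −0.13 for AbiR cells (all genes −0.011). Of 7 SREBP targets of fatty acid synthesis, none reached 2-fold either, a count read against the same 3.33% and 1.88%. Their median was −0.13 in MDVR, where that of all genes was 0.044, and −0.38 in AbiR, where that of all genes was −0.011. ELOVL6, an elongase, was highest in both lines at 0.68 ± 0.82 and 0.78 ± 0.31. The lowest was FASN, the fatty acid synthase, in MDVR (−0.41 ± 1.11) and SCD, the stearoyl-CoA desaturase, in AbiR (−0.97 ± 0.21). The 4 probe sets of SCD had values from −0.55 to 0.11 in MDVR and from −1.20 to −0.52 in AbiR, against −0.11 to 0.52 in parental cells, and every probe set was lower in AbiR than in parental cells.

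**Figure D5:**
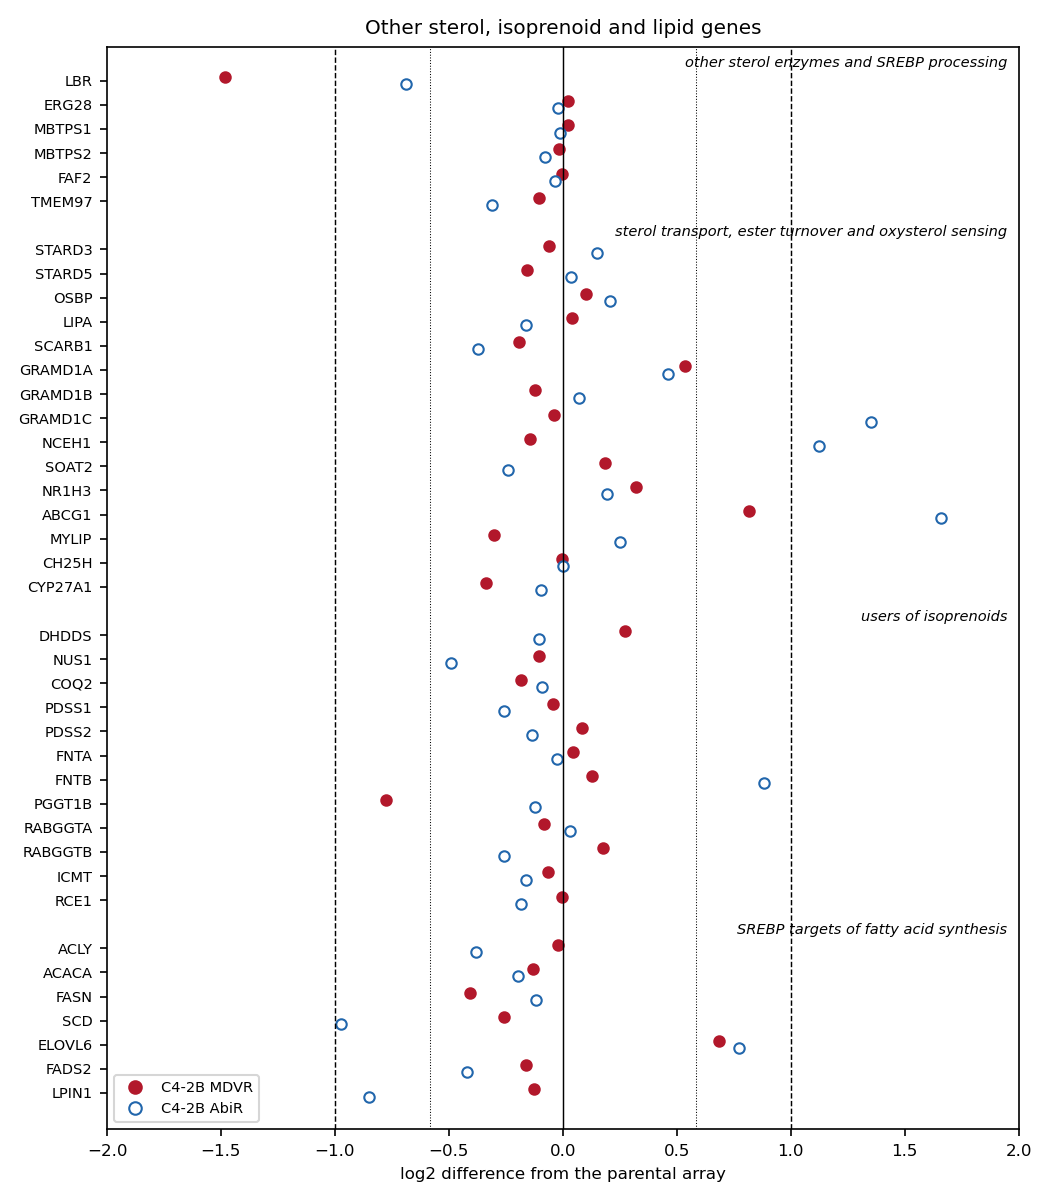
The genes of 4 further lists (y axis) by their log2 difference from parental (x axis), with C4-2B MDVR as filled and C4-2B AbiR as open circles and lines at 1.5-fold (dotted) and 2-fold (dashed). LBR lies at −1.48 in MDVR, and ABCG1, GRAMD1C and NCEH1 lie beyond the upper dashed line in AbiR only.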

How the data were processed

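RNA of each line was hybridised to 1 HG-U133 Plus 2.0 array, 3 arrays in all, and the labels gave the line. The deposited table holds log2 values, some negative, of 54675 probe sets. The submitters' processing notes name RMA, and its version is not given in the sources used here. Within a tolerance of 2e-06, 100% of probe sets fitted a median of 4 arrays set to 0, and 50.3% did after shuffling, so that the values appear centred with 1 further array, which was not analysed here. Centring leaves only differences between arrays.

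Only probe sets whose annotation lists 1 gene entered, with symbols updated through gene IDs against RefSeq (GRCh38.p14), which held 99.9% of them and all 26 sterol genes. A gene was the mean of its probe sets, 15 of the 26 genes having several. No floor was applied. Log2 differences were formed for 3 comparisons, with counts at 2-fold and 1.5-fold, in Python 3.11.15 with pandas 2.3.3. The code for gene means and counts was tested on simulated data in which all probe sets of a gene changed alike. Probe sets of genes such as SREBF1 and GGPS1 did not, so that test does not show how reliable the means are here. The members and lists were chosen with earlier results of these data known. All members are named, and of each further list the genes past 2-fold in a resistant line or else the highest and lowest. ACAT2 was placed with the mevalonate steps for its role, and the promoter motifs were chosen, after values were seen. Array number limits the precision.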

Additional observations from a re-analysis of the deposited data

Results flagged for a closer look

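NPC1 was the 1 sterol gene of 26 whose difference from parental had opposite signs in the resistant lines with both sizes above the SD of the spiked controls. Its values were −0.36 in C4-2B MDVR and 0.38 in C4-2B AbiR, and the difference between the lines was not tested, since each line had 1 array. A signal was also seen in the probe sets shared by CYP51A1 and LRRD1, which no gene value uses. One was lower than parental by −0.75 in MDVR and −0.55 in AbiR, the other by −0.27 in MDVR and −0.50 in AbiR, all larger in size than the SD of 0.13 and 0.10 of the spiked controls in these lines. The −0.27 was smaller in size than the largest control difference in MDVR, 0.35. It was also smaller than the root mean square SD between probe sets of a gene there, 0.34.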

How the results depend on the processing

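No paired analysis was possible because each group held 1 array. The 5 alternatives were arrays centred on their median or on the spiked controls, genes as the median of their probe sets or as the probe set with the largest range, and leaving out probe sets whose names end in _s_at, _x_at or _a_at. None turned the direction of a sterol gene that differed by at least 1.5-fold. The medians over the sterol genes moved by less than the SD of the spiked controls, although that of MDVR minus AbiR changed sign, to −0.024, with arrays centred on their median. The medians of the further lists were not recomputed. With the probe set of largest range, 4 genes instead of 2 differed by at least 2-fold between MDVR and parental, SREBF1 (−1.34) and GGPS1 (−1.10) being lower, and 9 instead of 7 at 1.5-fold, with SC5D (0.66) and NPC1 (−0.70). In AbiR 3 instead of 2 did at 2-fold, SOAT1 being lower (−1.24). Between MDVR and AbiR 3 instead of 0 did, and 4 instead of 2 at 1.5-fold, where SOAT1 (1.18) and GGPS1 (−0.997) were gained. This setting takes the most variable probe set of every gene, and the share of all genes past each fold was not computed under it. The higher counts are therefore no result about the sterol genes. Without suffixed probe sets 20 genes remained, TM7SF2 had no value, and 1 instead of 2 genes was at least 2-fold different in AbiR. IDI1 was then at 0.30 in MDVR instead of −0.15. A gene near background shows a smaller difference than it has, and centred values do not tell which genes these are.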
